A study of Mus musculus with 10 samples.

Results

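The clustered protocadherins are cell surface adhesion proteins whose genes lie in 3 neighbouring arrays on mouse chromosome 18, called alpha, beta and gamma. Members were taken by name: protein-coding genes of chromosome 18 whose symbol starts with Pcdha, Pcdhb or Pcdhg followed by a letter or number. The rule found 57 of the 21631 protein-coding genes on chromosomes 1 to 19 and X, with 14 in the alpha, 22 in the beta and 21 in the gamma cluster. In the build mm10 the alpha cluster spans chr18:36930285-37188897 (259 kb), the beta cluster chr18:37264998-37521419 (256 kb) and the gamma cluster chr18:37661775-37841873 (180 kb).

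Each alpha or gamma member is known to begin with its own promoter and its own large first exon, which is spliced to constant exons at the far end of the cluster, while beta members are genes of their own without a shared constant part. Most members are known to be chosen stochastically, so that each neuron displays its own combination and recognises its own branches. The C-type members (Pcdhac1, Pcdhac2, Pcdhgc3, Pcdhgc4 and Pcdhgc5) are known to be used more uniformly within particular cell populations. In retina, gamma protocadherins are known for self-avoidance of starburst amacrine dendrites and for the survival of interneurons. Promoter choice is known to involve DNA methylation, the insulator protein CTCF, cohesin and distal enhancers.

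The study compared chromatin of control C57BL/6 mouse retina with retina from which Casz1, a transcription factor of the zinc finger class, had been deleted conditionally (cKO). ATAC-seq, which uses the enzyme Tn5 to tag accessible DNA, was run on 2 control and 2 cKO libraries labelled postnatal day 2. These came from retinal explants given a plasmid for GFP alone (control, wild type) or for GFP and Cre (cKO), from which 50000 viable GFP-positive cells per library were sorted after 2 days in culture. H3K27ac, found at active regulatory DNA, and H3K27me3, the Polycomb mark of repressed chromatin, were mapped by ChIP-seq in microdissected postnatal day 0 retina, with a single control (wild type) and a single cKO library for each. ChIP tissue of the mutant was taken from the fluorescent periphery of the retina. The Cre driver of that tissue and the number of animals behind each library were not given in the sources used here, and the ATAC control cells received no Cre. The 2 input samples were not analysed here.

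Each library is represented by a list of peak positions without heights. The ATAC lists differed in length more within a genotype than between genotypes. Control replicate 1 held 40435 peaks and cKO replicate 2 held 60824, covering 11.8 and 20 Mb, and both are called the short lists. Control replicate 2 held 110741 peaks and cKO replicate 1 held 93767, covering 61.0 and 52.7 Mb, and both are called the long lists. The 4 ChIP lists held from 71605 to 92652 peaks. A start peak below means a peak that overlaps, by at least 1 bp, the 1 kb either side of a gene's annotated start, and a gene with an ATAC start peak is called open in that list. The same count over the 17331 protein-coding genes with a known start is given as the background. The neural retina markers Rax, Pax6, Six3, Six6, Lhx2, Otx2, Crx and Nrl had H3K27ac in both genotypes, and none of 3 pigment epithelium markers (Rpe65, Tyr, Mlana) had it. Of 3 microglial markers, Csf1r (158 bp) and C1qb (255 bp) had an H3K27ac peak in the control list and none in the cKO list. Of 3 blood vessel markers, Kdr had 1870 bp of H3K27ac in the control and 1484 bp in the cKO list, Cldn5 had 1522 and 1248 bp, and Cdh5 had 0 bp in both. The part of these other cells in the H3K27ac differences below was not tested. In whole tissue, fewer cells carrying a mark and less of the mark per cell cannot be told apart.

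**Figure D1:**
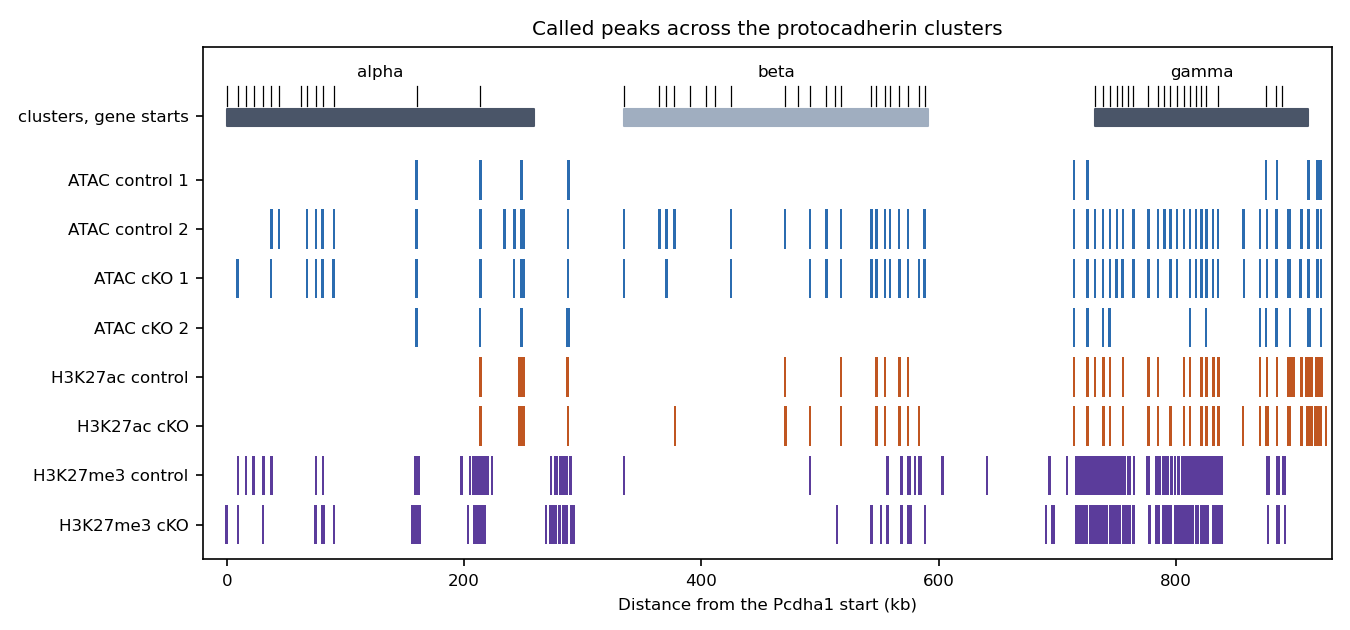
Called peaks in the 8 lists across the protocadherin locus, with distance from the Pcdha1 start in kb on the horizontal axis and 1 row per list, where the number is the replicate. Black ticks mark the 57 member starts, grey bars the clusters, and peaks under 2 kb are drawn 2 kb wide around their centre. H3K27me3 fills much of the gamma array and lies at Pcdhac1 and Pcdhac2 in the alpha cluster, and the beta cluster has no peak in ATAC control replicate 1 or cKO replicate 2.

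The 3 clusters carried different chromatin. The gamma cluster was the most marked: H3K27me3 peaks covered 31.9% of it in the control and 28.6% in the cKO retina, and H3K27ac peaks covered 8.25% and 7.93%. The alpha cluster was intermediate for H3K27me3, at 7.17% and 6.35%, with H3K27ac at 1.81% and 1.90%. The beta cluster had little of either mark, with H3K27me3 at 1.15% and 0.643% and H3K27ac at 0.644% and 0.922%. These levels were set beside all windows of the same length along the genome that touch a protein-coding gene. The gamma cluster's H3K27me3 coverage exceeded that of 97.4% of 10195 windows in the control and 97.2% in the cKO list, where the median window was covered over 0.719% and 0.707%. Its H3K27ac coverage exceeded that of 92.5% and 93.0% of windows. For the beta cluster the same shares were 51.7% and 44.9% for H3K27me3, and 30.6% and 38.2% for H3K27ac, of 7574 windows.

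Open chromatin followed the same order in the long ATAC lists. Control replicate 2 covered 9.54% of the gamma, 3.04% of the alpha and 2.25% of the beta cluster, and cKO replicate 1 covered 7.42%, 2.37% and 1.94%. In the short lists the beta cluster had no peak at all, the alpha cluster was covered over 0.417% in control replicate 1 and 0.590% in cKO replicate 2, and the gamma cluster over 0.299% and 1.65%. Control replicate 1 thus departed from the order, with the alpha cluster above the gamma cluster.

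**Figure D2:**
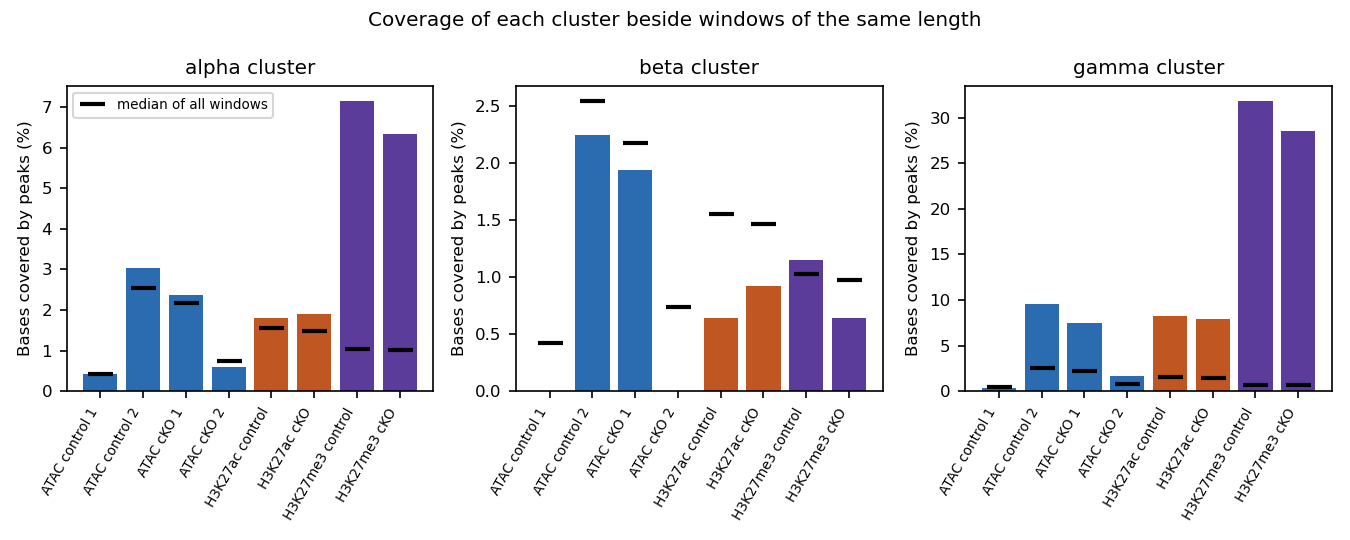
Share of each cluster's bases covered by peaks (%, vertical axis, scaled separately per panel) in the 8 lists, as bars. Black dashes give the median of all windows of the same length that touch a protein-coding gene. The gamma cluster's H3K27me3 bars stand at 31.9% and 28.6%, and the beta cluster has no ATAC bar in control replicate 1 and cKO replicate 2.

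The gamma cluster differed from the Hox clusters, arrays of developmental regulators that are textbook Polycomb targets. From the first to the last gene, H3K27me3 covered from 99.9% to 100% of each of the 4 Hox clusters in both genotypes. H3K27ac was called in the Hoxa cluster over 196 bp in the control and nowhere else in the 4 clusters. In the gamma cluster H3K27me3 was instead broken into 60 peaks in the control and 63 in the cKO list, with median widths of 428 and 344 bp, and H3K27ac peaks lay among them. The mode of H3K27me3 peak calling, narrow or broad, was not given in the sources used here.

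Chromatin at the member starts was sparse in some ATAC lists and common in others. A start peak was found at 4 of 57 members (7.02%) in control replicate 1 and at 8 (14.0%) in cKO replicate 2, against backgrounds of 53.9% and 58.1% of all genes. In control replicate 2 there were 43 open members (75.4%) and in cKO replicate 1 there were 39 (68.4%), against 65.2% and 64.1%. The members therefore lay far below the background in the short lists and slightly above it in the long ones, whichever the genotype. Open in both long lists and in neither short list were 29 of 57 members (50.9%), compared with 956 of all genes (5.52%). Open in all 4 lists were 4 members, all of them C-type, compared with 53.6% of all genes. Counted at equal list length, with the 40435 widest peaks of each list, 9 members (15.8%) were open in each long list, against 58.7% of all genes in control replicate 2 and 58.6% in cKO replicate 1.

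**Figure D3:**
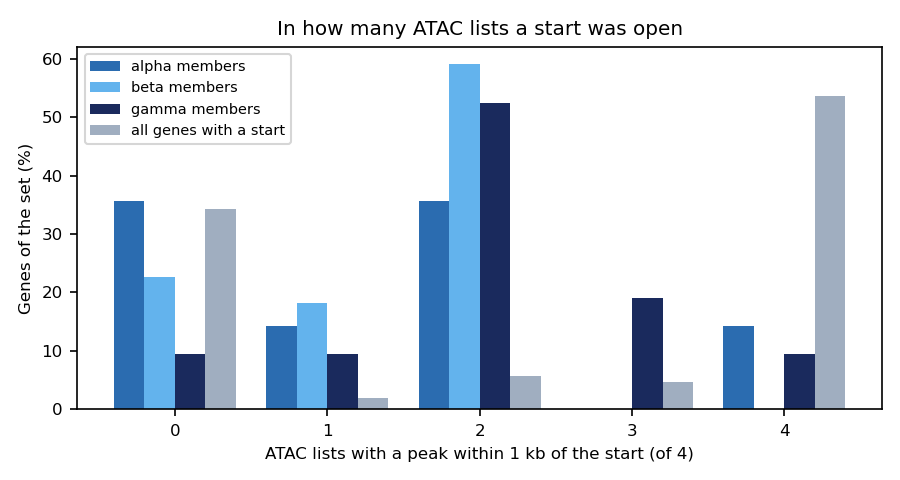
Share of the genes of each set (%, vertical axis) by the number of ATAC lists, from 0 to 4, with a peak within 1 kb of the start. Dark, light and darkest blue bars are the 14 alpha, 22 beta and 21 gamma members, and grey bars all 17331 genes with a start. Most members of the beta and gamma clusters were open in 2 lists, and 53.6% of all genes in 4.

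H3K27ac marked fewer member starts than starts in general. It was called at 20 members (35.1%) in the control and 23 (40.4%) in the cKO list, against 59.4% and 59.3% of all genes. H3K27me3 marked more, at 33 members (57.9%) in the control and 30 (52.6%) in the cKO list, against 25.4% and 24.9%. Both marks stood at 15 members (26.3%) in the control list, 13 of them gamma, against 15.5% of all genes. H3K27ac without H3K27me3 was found at 5 control starts (8.77%), all in the beta cluster (Pcdhb9, Pcdhb14, Pcdhb16, Pcdhb17 and Pcdhb19), against 43.9% of all genes. No peak of any list reached the start of 7 members (12.3%): Pcdha8, Pcdhb5, Pcdhb6, Pcdhb7, Pcdhb10, Pcdhb13 and Pcdhgc5. For all genes that share was 27.5%.

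In the long ATAC lists and both H3K27ac lists, most peaks at member starts were centred downstream of the start. The centre of the ATAC peak stood a median of 143 bp downstream of the annotated start in control replicate 2 and 96 bp in cKO replicate 1, with 39 of 43 and 33 of 39 centres downstream. By cluster these were 19 of 19 and 17 of 17 in the gamma and 15 of 16 and 12 of 14 in the beta cluster. In the alpha cluster only 5 of 8 and 4 of 8 were downstream, at medians of 82.5 and 2.5 bp. Every H3K27ac centre was downstream, in 20 of 20 control and 23 of 23 cKO cases, at medians of 229 and 225 bp. H3K27me3 centres ranged more widely, from -1729 to 2553 bp in the control and from -671 to 1277 bp in the cKO list. Centre positions were not measured at other genes, so whether the downstream position is particular to the members was not tested. The acetylated part of a start window had a median of 344 and 348 bp at members with a peak, compared with 1324 and 1277 bp at all genes with one.

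**Figure D4:**
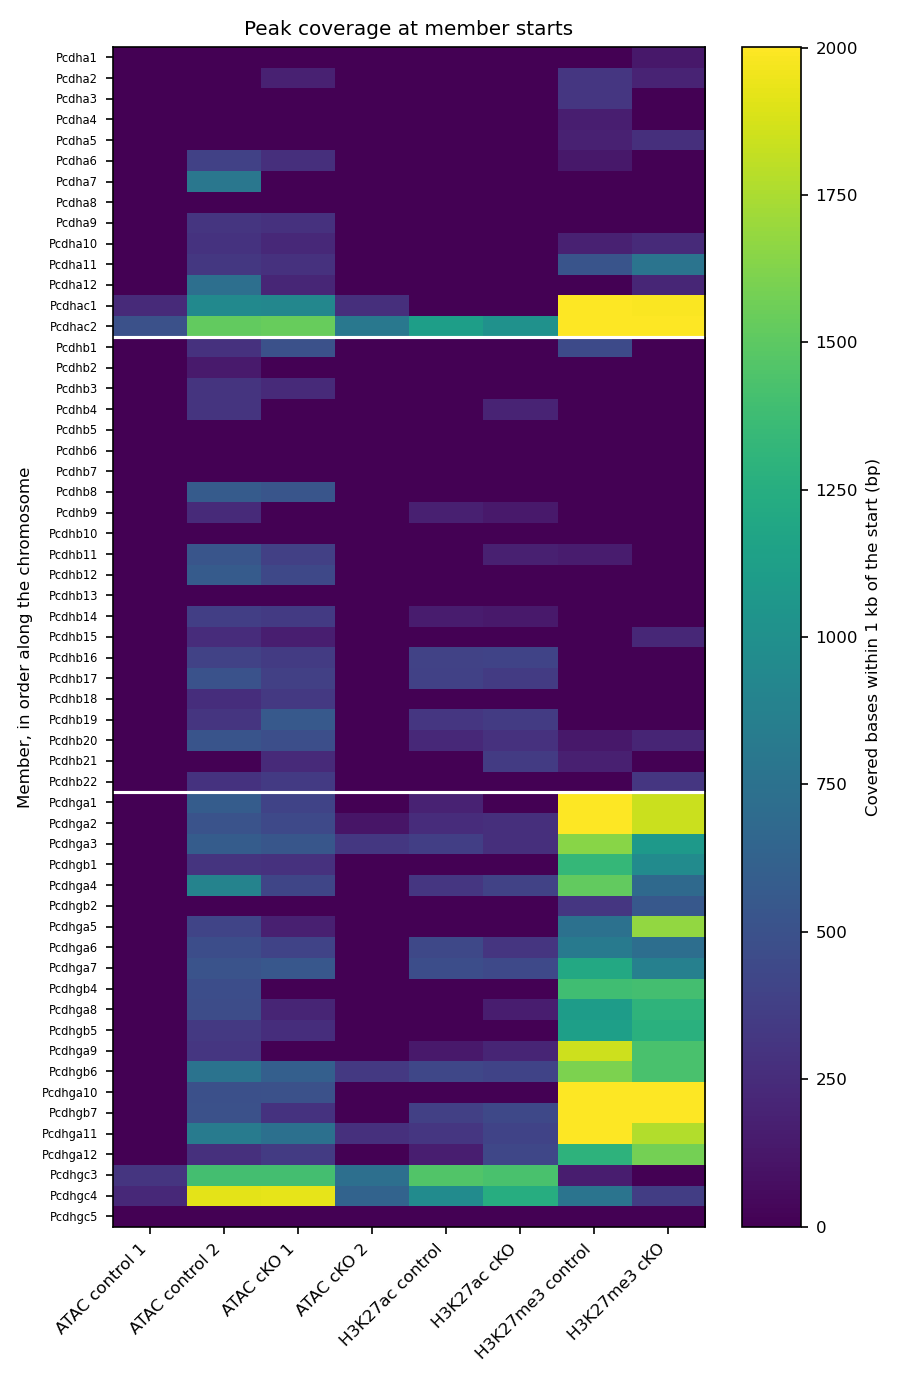
Bases covered by peaks within 1 kb of each member's start (colour, from 0 to 2001 bp), with the 57 members in chromosome order down the vertical axis and the 8 lists across. White lines part the alpha, beta and gamma clusters. Pcdhac1, Pcdhac2, Pcdhgc3 and Pcdhgc4 are the only rows with colour in all 4 ATAC columns, and most gamma rows are bright in both H3K27me3 columns.

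The alternate alpha members, Pcdha1 to Pcdha12, had no H3K27ac start peak in either genotype. None of the 12 was open in either short list, and 6 of 12 were open in each long list. H3K27me3 reached 7 of 12 starts in the control and 6 of 12 in the cKO list, but in short pieces, at most 521 and 769 bp of the 2001 bp window, both at Pcdha11. Pcdha1, the first gene of the cluster, was closed in all 4 ATAC lists and carried 0 bp of H3K27me3 in the control and 127 bp in the cKO list. From Pcdha1 up to the Pcdhac1 start region, H3K27ac covered 0 bp, and H3K27me3 covered 1.59% in the control and 1.83% in the cKO list. From Pcdhac1 to the end of the cluster the same marks covered 4.70% and 4.94% for H3K27ac and 16.0% and 13.6% for H3K27me3.

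Pcdhac1 and Pcdhac2, the C-type members at the downstream end of the alpha array, were open in all 4 lists and lay in H3K27me3. At Pcdhac1 the ATAC peaks covered 235 and 951 bp of the start window in the control replicates 1 and 2, and 924 and 269 bp in the cKO replicates 1 and 2. At Pcdhac2 they covered 494, 1517, 1538 and 802 bp in the same order. At both genes the short lists are low, the long lists high, and the genotypes overlap. H3K27me3 covered all 2001 bp at Pcdhac1 in the control and 1987 bp in the cKO list, and all 2001 bp at Pcdhac2 in both. H3K27ac differed between the pair: it was not called at Pcdhac1 in either list and covered 1124 bp in the control and 1015 bp in the cKO list at Pcdhac2. Every acetylated base at Pcdhac2 was also inside an H3K27me3 peak. That peak was the widest of the alpha cluster, 8162 bp in the control (chr18:37138642-37146803) and 9025 bp in the cKO list (chr18:37139504-37148528).

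Beta members carried small open sites and little Polycomb mark. Of 22 starts, 16 were open in control replicate 2, 14 in cKO replicate 1 and none in either short list. Every one of the 16 and 14 ATAC peaks of the beta cluster in the long lists reached a start window, as did every H3K27ac peak, 6 in the control and 9 in the cKO list. H3K27me3 start peaks were few, at 4 control and 3 cKO starts, and only Pcdhb20 had one in both. Pcdhb1, the first gene of the cluster, was covered by ATAC peaks over 0, 289, 495 and 0 bp in control replicates 1 and 2 and cKO replicates 1 and 2. It had no H3K27ac, and 448 bp of H3K27me3 in the control and 0 bp in the cKO list. Pcdhb22, the last gene, had 0, 297, 337 and 0 bp of ATAC coverage, no H3K27ac, and 0 bp and 317 bp of H3K27me3. In these 2 edge genes the single H3K27me3 peak was present in opposite genotypes. Of the 6 acetylated starts in the control list, 5 were Pcdhb14, Pcdhb16, Pcdhb17, Pcdhb19 and Pcdhb20, and the other was Pcdhb9. The 9 in the cKO list were the same 6 with Pcdhb4, Pcdhb11 and Pcdhb21, so that acetylated starts reached from Pcdhb4 to Pcdhb21.

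The gamma A and B members, the alternate genes of that cluster, had H3K27me3 at all 18 starts in both genotypes. The median covered length was 1454 bp of 2001 bp in the control and 1417 bp in the cKO list, with the lowest at 317 and 553 bp, both at Pcdhgb2. H3K27ac was called at 11 of 18 in each list, at 9 of 12 A members and 2 of 6 B members. The 2 acetylated B members, Pcdhgb6 and Pcdhgb7, were the same in both lists. Of the same 18 starts, 17 were open in control replicate 2, 15 in cKO replicate 1, 4 in cKO replicate 2 (Pcdhga2, Pcdhga3, Pcdhgb6 and Pcdhga11) and none in control replicate 1. Pcdhga1, the first gamma gene, had ATAC coverage of 0, 585, 399 and 0 bp in control replicates 1 and 2 and cKO replicates 1 and 2. It had 192 bp of H3K27ac in the control list and 0 bp in the cKO list, and its H3K27me3 covered 2001 and 1842 bp.

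Pooled over all gamma starts, the share of acetylated sequence inside H3K27me3 peaks was a little above that of the whole start windows. At beta starts both shares were low. Of 5888 acetylated bp at 13 gamma starts in the control, 70.3% lay inside H3K27me3 peaks, and 10 of the 13 lay inside completely. In the cKO list 62.7% of 6387 bp did, with 9 of 13 inside completely. H3K27me3 covered 64% of all bases in the 21 gamma start windows in the control and 59% in the cKO list. The pooled shares mix unlike starts. At every acetylated A or B start, at least 85.8% of the acetylated bases lay inside in the control and 86.5% in the cKO list. Over all 18 A and B windows H3K27me3 covered a median of 1454 and 1417 bp of 2001 bp. At Pcdhgc3 the acetylated share inside was 11.1% and 0%, and at Pcdhgc4 59% and 29.4%. At the beta starts 2.06% of 1652 acetylated bp lay inside H3K27me3 peaks in the control and 0.211% of 2365 bp in the cKO list. The 22 beta windows as a whole were covered over 2.06% and 1.7%. The difference between gamma and beta starts is thus present in H3K27me3 coverage itself. The lists come from many cells, so the 2 marks at a start need not share a cell or an allele.

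H3K27me3 also varied along the gamma array. To avoid counting the shared downstream part of overlapping genes many times, each member was given its own stretch, from 1 kb before its start to 1 kb before the next start. In the control list the covered share was 69.8% at Pcdhga1, 6.18% at Pcdhga5, 97.1% at Pcdhga10 and 100% at Pcdhgb7. In the cKO list the same 4 stretches stood at 77.7%, 14.2%, 95.4% and 100%. The peak over Pcdhgb7 and Pcdhga11 was the widest of the cluster in the control, at 8309 bp (chr18:37750018-37758326). In the cKO list the same place held a peak of 4679 bp and another of 3179 bp.

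The 3 C-type gamma members at the downstream end differed from each other. Pcdhgc3 had ATAC coverage of 308, 1406, 1402 and 727 bp in control replicates 1 and 2 and cKO replicates 1 and 2. Its start window held 1454 and 1425 bp of H3K27ac and 162 and 0 bp of H3K27me3 in the control and cKO lists. Just past that window lay a further H3K27me3 peak, of 1411 bp in the control and 708 bp in the cKO list. Over the own stretch of Pcdhgc3, H3K27me3 covered 1573 bp (18.1%) and 708 bp (8.17%). Pcdhgc4, known to be required for the survival of interneurons, had 231, 1919, 1929 and 639 bp of ATAC coverage, 963 and 1249 bp of H3K27ac, and 771 and 367 bp of H3K27me3. Pcdhgc3 and Pcdhgc4 were thus open in all 4 lists with broad acetylation, in both genotypes. Pcdhgc5, the last gene, had 0 bp within 1 kb of its start in all 8 lists. The nearest ATAC peak to its start was from 3.44 to 4.13 kb away, and the nearest H3K27ac peak 3.67 kb in the control and 3.36 kb in the cKO list. Further down its own stretch, which runs to 1 kb past the end of the cluster, H3K27ac covered 8064 bp (33.1%) in the control and 6903 bp (28.4%) in the cKO list. From Pcdhgc3 to the end of the cluster, H3K27ac covered 27.9% and 25.8%, and H3K27me3 11.9% and 5.30%. In the A and B part before it the shares were 3.27% and 3.40% for H3K27ac, and 36.9% and 34.5% for H3K27me3.

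Few sites of the clusters were open in all 4 ATAC lists, and most of those were C-type starts. Merging overlapping ATAC peaks gave 59 regions in the 3 clusters and 3 in the gaps between them. Of the 59, 45 lay within 1 kb of a member start, and 6 (10.2%) were called in all 4 lists, against 28.2% of 118715 regions over the genome. Of these 6, 4 were at the starts of Pcdhac1, Pcdhac2, Pcdhgc3 and Pcdhgc4. The other 2 and all 3 regions of the gaps lay away from member starts. Distance to the starts of other genes was not measured. The gap region chr18:37643734-37644614 overlapped the upper end of the neighbouring gene Taf7, whose strand was not known here. In the alpha cluster the region chr18:37178072-37179006, 34.4 kb after the Pcdhac2 start, was open in all 4 lists and acetylated over its 935 bp in both genotypes, without H3K27me3. In the gap after the alpha cluster chr18:37217189-37218488 was open in all 4 lists, with 983 and 849 bp of H3K27ac in the control and cKO lists. Enhancers inside and downstream of the alpha cluster are known, and these regions were not assigned to them because no file here gives their positions. Before the gamma cluster chr18:37655346-37656063, 5.71 kb from the Pcdhga1 start, was open in all 4 lists, with 356 and 321 bp of H3K27ac inside 718 bp of H3K27me3. At the far end of the gamma cluster chr18:37841280-37843145 was open in all 4 lists and acetylated over 1866 bp in both genotypes. This region ended within 1 kb of the lower end of the neighbouring gene Diaph1, whose strand was not known here.

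ATAC coverage of the clusters differed between genotypes by less than the spread between libraries. The covered share of the 3 clusters, divided by the share of the genome that the same list covers, gave a log2 enrichment of -0.95 and 0.93 in control replicates 1 and 2 and of 0.81 and -0.23 in cKO replicates 1 and 2. The long lists are high, the short lists low, and the genotypes overlap. The mean was -0.01 ± 1.33 (SD, n = 2) in the control and 0.29 ± 0.74 (SD, n = 2) in the cKO libraries, a difference of 0.30. An exact permutation test over the 4 libraries, two-sided, gave p = 1.000, where the smallest p this design allows is 0.333. Compared at like length, the cKO list was 0.72 higher among the short lists and differed by -0.12 among the long ones. The direction rests on single libraries: the difference was -0.64 without control replicate 1 and -0.22 without cKO replicate 1.

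No ATAC region of the 59 was called in both cKO lists and neither control list, or the reverse. The background over 118715 regions was 0.274% and 0.123%, at which hardly any of 59 would be called. Of the 59, 34 were open in the long lists only, 1 list of each genotype, and could not meet this rule. The absence of calls is thus not informative. No member passed a 1.5-fold difference of scaled ATAC coverage over its body and 1 kb either side, with at least 500 bp covered in either group. Over all 21631 genes 3.22% passed with more and 1.77% with less in the cKO libraries. Beta bodies had 0 bp in both short lists and at most 575 bp in a long list, so the 500 bp minimum left them little room to pass. Alpha bodies overlap each other, as do gamma bodies, so the members are not separate tests and the count is not comparable with the background.

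H3K27ac peaks covered 21198 bp of the 3 clusters in the control and 21568 bp in the cKO list. The change from control to cKO was 1.75% in the clusters and -6.84% over the genome. By cluster it was 4.92% in the alpha, 43.2% in the beta (1652 to 2365 bp) and -3.86% in the gamma cluster. With 1 library per genotype there is no replicate check. No member passed the 1.5-fold rule over its body, against 1.23% of all genes with more and 2.79% with less in the cKO list. A start peak appeared in the cKO list only at 4 members (7.02%; all genes 1.08%): Pcdhb4 with 196 bp, Pcdhb11 with 175 bp, Pcdhb21 with 351 bp and Pcdhga8 with 161 bp. In the control list only it stood at 1 member, Pcdhga1 (1.75%; all genes 1.22%). All 5 of these peaks were narrow. Among peaks present in both lists, Pcdhgc4 went from 963 to 1249 bp and Pcdhga12 from 171 to 423 bp, and the largest decreases after Pcdhga1 were at Pcdhga6 (437 to 308 bp) and Pcdhac2 (1124 to 1015 bp). Of the 24 members with H3K27ac at the start in either list, 14 had more and 10 fewer covered bases in the cKO list, whereas over all genes 3716 had more and 6242 fewer.

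H3K27me3 covered less of the clusters in the cKO list, 69551 bp against 78859 bp in the control list. The change was -11.8%, beside -3.3% over the genome. By cluster it was -11.4% in the alpha, -43.9% in the beta and -10.3% in the gamma cluster, where the beta cluster had the fewest bases, 2939 bp in the control and 1648 bp in the cKO list. Over the own stretches, 26 of 42 marked members had fewer and 15 more covered bases in the cKO list, and 1 was equal. All 5 C-type members had fewer, 20331 bp in the control and 15460 bp in the cKO list together. Own stretches were not defined for other genes, so these counts have no background, and there was 1 library per genotype. Within the start windows 20 of 37 had fewer and 14 more, compared with 1739 fewer and 1529 more of 4699 marked genes overall.

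Under the 1.5-fold rule over gene bodies, 6 members (10.5%) had less H3K27me3 in the cKO list, against 2.47% of all genes, and none had more, against 1.85%. They were Pcdhb17 (547 to 173 bp), Pcdhb20 (770 to 365 bp), Pcdhb21 (775 to 0 bp), Pcdhgc3 (4328 to 1931 bp), Pcdhgc4 (2755 to 1223 bp) and Pcdhgc5 (834 to 132 bp). The bodies of the 3 gamma members overlap, so they count much of the same sequence. Bodies of the other gamma members and of the alpha members overlap in the same way, so the members are not separate tests. A start peak was present in the control list only at 7 members (12.3%; all genes 2.19%), namely Pcdha3, Pcdha4, Pcdha6, Pcdhb1, Pcdhb11, Pcdhb21 and Pcdhgc3, with 132 to 448 bp each. At Pcdhgc3 a wider H3K27me3 peak just past the window was present in both lists. The reverse, a start peak in the cKO list only, was found at 4 members (7.02%; all genes 1.67%), namely Pcdha1, Pcdha12, Pcdhb15 and Pcdhb22, with 127 to 317 bp each. Changes went both ways between neighbours in the gamma array: Pcdhga4 went from 1522 to 682 bp and Pcdhga3 from 1644 to 1073 bp, while Pcdhga5 went from 745 to 1677 bp. At Pcdhb11 and Pcdhb21, the start had H3K27me3 and no H3K27ac in the control list and the reverse in the cKO list. The pieces were small, 154 and 179 bp of H3K27me3 and 175 and 351 bp of H3K27ac, from 1 library each. The share of all genes with such an exchange was not counted.

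Peak pieces were unequally shared between genotypes. Of the H3K27ac peaks in the 3 clusters, 3 of 32 (9.38%) control and 5 of 34 (14.7%) cKO peaks met none of the other genotype, against 31.1% and 30.9% over the genome. For H3K27me3 the figures were 39 of 90 (43.3%) and 24 of 84 (28.6%), against 35.2% and 30.9%. In the beta cluster 8 of 10 control and 6 of 8 cKO H3K27me3 peaks were unshared, with median widths of 284 and 189 bp.

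**Figure D5:**
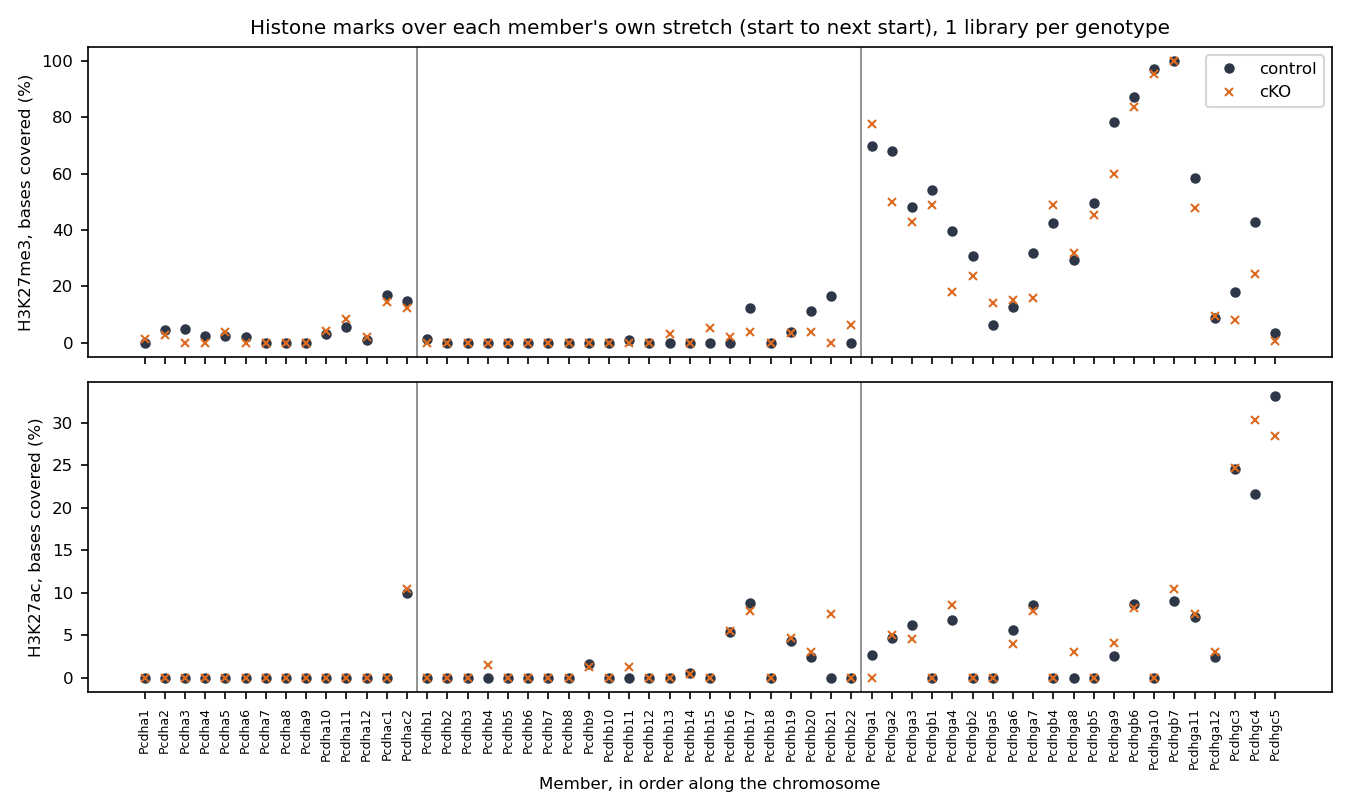
Share of each member's own stretch covered by H3K27me3 (upper panel) and H3K27ac (lower panel) peaks in % on the vertical axes, for the control (dots) and cKO (crosses) library, with members in chromosome order and grey lines between the clusters. In the gamma array the control share is 69.8% at Pcdhga1, 6.18% at Pcdhga5 and 100% at Pcdhgb7, with the cKO values at 77.7%, 14.2% and 100%.

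Other protocadherins were more often open in the short lists than the clustered members, without a test of that difference. Of 12 non-clustered protocadherins, solitary relatives outside the arrays, 9 were open in control replicate 1 and 10 in each of the other 3 ATAC lists, and 10 had H3K27ac in the control and 9 in the cKO list. The difference was Pcdh15, a tip link protein of hair cells, with 441 bp of H3K27ac in the control and 0 bp in the cKO list. H3K27me3 stood at 7 of the 12 in both. Among 22 cadherins outside the protocadherins 11 and 13 were open in the short lists and 17 and 18 in the long lists. H3K27ac was called in the cKO list only at Cdh1 (158 bp) and in the control list only at Cdh8 (193 bp). H3K27me3 was called in the cKO list only at Cdh15 (368 bp) and Celsr2 (206 bp). Of 17 factors that fold or silence the clusters, among them Ctcf, Smc3 and the silencing factor Smchd1, 12 had H3K27ac in each genotype and none gained or lost a start peak of either mark. Of 12 intracellular partners, among them the kinase Fyn and the Wave complex subunit Cyfip2, 10 had H3K27ac in both and none gained or lost one. Over all genes such gains and losses stood at 1.08% to 2.19% per mark and direction, so lists this short would hold few or none. Next to the gamma cluster the formin gene Diaph1 and the deacetylase gene Hdac3 were open in all 4 lists. Diaph1 was scored at both ends, and its lower window shares the open region at the far end of the gamma cluster.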

How the data were processed

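Peak lists of 8 libraries were used. Per the submitters' processing notes, Bowtie2, deepTools and MACS2 were used with the build mm10; versions, thresholds, handling of duplicate and multi-mapped reads, a Tn5 shift and whether inputs entered the calls were not given in the sources used here. Deposited lists give each peak's position, the authors' score is 0 throughout, and no read depth is known, so no precision per peak can be given. Members of an array resemble each other in sequence, and how far read mapping set their peaks was not tested.

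Gene positions came from RefSeq (GRCm38.p6, the assembly of mm10), without strand for chromosome 18. Members were taken as lying on the plus strand, and other genes' starts from the RefSeq promoter table, so 17331 of 21631 genes have one. For comparison genes without a start, both ends were used. Promoters inside a gene were not counted, also in the background, because only the outer end of each gene served as its start. Peaks off chromosomes 1 to 19 and X were left out, from 0.0647% to 0.372% of a list. Overlaps need 1 bp. Exons and introns were not assigned, and no sequence of chromosome 18 is printed. Groups and replicate numbers came from sample titles, and p-values measure only the spread between these libraries; per the labels' protocols the ATAC work was done on separate days, which are not tied to libraries.

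For pairing, ATAC coverage of all 118715 merged regions, on a log2 scale, was centred on its group mean; libraries with the same number correlated at -0.274, so the numbers were not used as a block. Named genes are the C-type members, the first and last of each cluster, the 5 largest start changes per histone mark and direction, members with a histone start peak in 1 genotype only and those open in all 4 ATAC lists; others named in counts were chosen after their values were seen. Members and lists were chosen with earlier results of these data known. Computations ran in Python 3.11.15 with numpy 2.4.6 and pandas 2.3.3, and the overlap counting was tested on simulated intervals. Of the marker genes, 1 is not reported here.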

Additional observations from a re-analysis of the deposited data

How the results depend on the processing

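Depth is unknown for every library. The difference in ATAC enrichment, 0.30, ranged from 0.27 to 0.57 under other scalings, peak widths and region limits, and was 0.30 with a replicate block (exact sign-flip p = 1.000, where the smallest possible is 0.5). Leaving out 1 library gave from -0.64 to 1.24 and reversed it without control replicate 1 (-0.64) and without cKO replicate 1 (-0.22). Crossed replicate numbers, chosen after seeing the data, gave 0 regions in either direction, as did the labelled numbers. For the histone marks the difference was the log2 of cKO over control enrichment, scaled by list total as for ATAC. Both differences kept their direction, H3K27ac from 0.05 to 0.15 around 0.13 and H3K27me3 from -0.19 to -0.12 around -0.13. Without that scaling, the log2 ratio of covered bases was 0.02 for H3K27ac and -0.18 for H3K27me3. With peaks of at least 300 bp, members with a start peak numbered 1 in ATAC control replicate 1, 25 in cKO replicate 1, 5 in cKO replicate 2, and 13 and 14 for control and cKO H3K27ac. The widest peaks at equal list length gave 9 each in ATAC control replicate 2 and cKO replicate 1 (43 and 39 with all peaks), while the counts were 20 and 23 for H3K27ac and 31 and 30 for H3K27me3. Counting bodies and 1 kb gave 35 in ATAC control replicate 1 and 35 in cKO replicate 2, and 41 and 44 for control and cKO H3K27ac. In both ATAC lists the 35 were all 14 alpha and 21 gamma members, whose bodies share the downstream end of their cluster. The clusters held only 7 and 13 peaks in these 2 lists, so the 35 are not separate open members. The share of all genes was not counted over bodies. Under the 1.5-fold rule, a minimum of 200 bp gave 1 member with more H3K27ac, 2 with more H3K27me3 and 2 with more ATAC coverage in the cKO lists, and the start window gave 2 with more H3K27me3, 3 with less H3K27me3 and 1 with more ATAC coverage. Leaving out 1 ATAC library gave from 0 to 6 regions in the cKO only and from 0 to 10 in the control only. Scaling by list total was not run for ATAC under the 1.5-fold rule, where it is already part of the measure.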
